A study of Danio rerio with 6 samples.

Results

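Matrix metalloproteinases (MMPs) are zinc-dependent enzymes that cut collagens, laminins and other proteins of the extracellular matrix, and tissue inhibitors of metalloproteinases (TIMPs) bind and block them. The genes described here are mmp2, mmp9, mmp13a, mmp14a, mmp14b, mmp15a, mmp15b, timp2a and timp2b, taken as every row of a zebrafish gene count table that carries one of these 9 symbols. The rule found 10 rows of 32057, because mmp13a stands on 2 rows (ENSDARG00000012395 and ENSDARG00000114451), and 8 rows had enough counts to be tested. The 8 are mmp2 (ENSDARG00000017676), mmp9 (ENSDARG00000042816), mmp14a (ENSDARG00000002235), mmp14b (ENSDARG00000008388), mmp15a (ENSDARG00000051962), mmp15b (ENSDARG00000013072), timp2a (ENSDARG00000061226) and timp2b (ENSDARG00000075261).

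The table holds poly-A RNA sequencing of single whole zebrafish (Danio rerio) at 30 hours post fertilisation, with 3 wild-type embryos and 3 embryos of the genotype 3etv, which the series title describes as triple mutants of the Pea3 group. Pea3 factors are ETS transcription factors that act downstream of fibroblast growth factor signalling. The mutated genes and alleles are not named in the labels, which also give no strain, clutch or parents, so p-values measure the spread between these embryos and a family difference that followed genotype cannot be told apart from it. The titles name the wild types WLD301, WLD302 and WLD303 and the mutants MUT301, MUT302 and MUT303, and values are given in that order.

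Most MMPs are made as inactive proenzymes that another protease or a change in their own propeptide must open. In mammals the membrane-anchored enzyme MMP14 binds TIMP2 at the cell surface, and the bound TIMP2 holds pro-MMP2 there until a free MMP14 molecule cuts it. A little TIMP2 therefore helps MMP2 activation and an excess blocks it. Pea3 factors have been described as activators of several MMP promoters in mammalian cells, and the comparison asks whether transcripts of such proteases and their inhibitors differ between embryos with and without the mutations.

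Each library held from 17570505 to 25512862 counts in genes, and every mutant library was shallower than every wild-type library. A level is given in CPM, a count rescaled by the library total and its TMM factor, and a gene was called when its adjusted p in edgeR's quasi-likelihood test was under 0.05 over all 19889 genes tested. The Pea3 genes, as a check of the labels, ran from 73.1 to 76.7 CPM in wild types and from 28.1 to 31.5 CPM in mutants for etv5b, from 36.9 to 39.7 and from 18.4 to 19.8 for etv5a, and from 29.4 to 34.8 and from 20.6 to 25.7 for etv4. In the fourth, etv1, the 3 mutants lay higher, at 6.31 to 6.95 CPM against 5.15 to 5.75. The difference was not called (adjusted p = 0.191 in edgeR), whereas the other Pea3 genes were called lower. A transcript level does not check a lesion that the labels leave undescribed. Lists of macrophage, neutrophil, endothelial, epidermal, fin fold and hatching gland markers were detected in all 6 libraries.

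Of the 8 tested members, mmp14a and mmp15b fell in the mutants and none was called higher. Across all tested genes, 13.5% were called lower, 12.6% higher and 26% in either direction, so 2 of 8 members called is close to the share over the transcriptome. The edgeR test put 1 member (mmp9) higher and 3 members (mmp2, mmp14a and mmp15b) lower at an unadjusted p under 0.05. DESeq2 called 1 higher and 3 lower, the same 4 genes, and limma-voom called 0 higher and 2 lower. The median log2 fold change of the 8 was -0.14, against -0.0068 over all tested genes. Scaled by library totals alone, 2 members were lower and 0 higher, and the median of all genes moved to -0.082.

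Of the membrane-type enzymes, mmp14a, one of the zebrafish counterparts of MMP14 (MT1-MMP), was at 29.8, 38.5 and 35.7 CPM in the wild types, and at 26.2, 29.7 and 23.2 CPM in the mutants. All 3 mutants lay under all 3 wild types, but the highest mutant and the lowest wild type nearly touched. The mean went from 34.7 ± 4.41 CPM (SD, n = 3) to 26.3 ± 3.26 CPM (SD, n = 3), a log2 fold change of -0.40 ± 0.12 (SE, adjusted p = 0.0294 in edgeR). Over all tested genes, 42.9% had groups that did not overlap, against 2 of the 8 members.

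The second counterpart, mmp14b, did not separate the groups. Its level was 45.3, 58.0 and 48.7 CPM in the wild types and 50.6, 54.2 and 49.9 CPM in the mutants, so every mutant lay inside the wild-type range. The log2 fold change was 0.02 ± 0.10 (SE, adjusted p = 0.892 in edgeR), with a 95% interval from -0.20 to 0.24, and its sign turned with library totals as the scaling (-0.051).

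The gene mmp15b, one of the counterparts of the membrane-type enzyme MMP15 (MT2-MMP), showed the largest fall among the tested members. The wild types held 162, 309 and 230 counts (7.46, 12.02 and 9.95 CPM), and the mutants held 142, 109 and 95 counts (7.17, 6.42 and 5.18 CPM). The groups did not overlap, although WLD301 stood close to MUT301. The log2 fold change was -0.65 ± 0.19 (SE, adjusted p = 0.0263 in edgeR), which is a level 0.637 times that of the wild types. Its paralog mmp15a was at 8.61, 11.8 and 10.9 CPM in wild types and 9.997, 9.14 and 7.31 CPM in mutants. These ranges overlapped, and the log2 fold change was -0.25 ± 0.17 (SE, adjusted p = 0.291 in edgeR), with a 95% interval from -0.61 to 0.11.

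Each of the 2 calls was lost in 4 of the 6 fits with an embryo left out. Such fits hold fewer embryos, and over all genes the number called lower went from 2676 to between 1787 and 2572. The mmp14a call was lost when WLD302, WLD303, MUT301 or MUT303 was left out (edgeR adjusted p = 0.0969, 0.0894, 0.0745 and 0.121), and held without WLD301 or MUT302. The mmp15b call was lost without WLD302, WLD303, MUT302 or MUT303 (edgeR adjusted p = 0.106, 0.0716, 0.0641 and 0.0976). Some calls were lost with little change in the effect. The mmp15b log2 fold change was -0.64 without WLD303 and -0.66 without MUT302, against -0.65 on all 6 embryos. For mmp14a it was -0.38 without WLD303 or MUT301, against -0.40. The direction stayed negative for both genes in all 13 alternative fits, from -0.50 to -0.31 for mmp14a and from -0.81 to -0.48 for mmp15b.

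**Figure D1:**
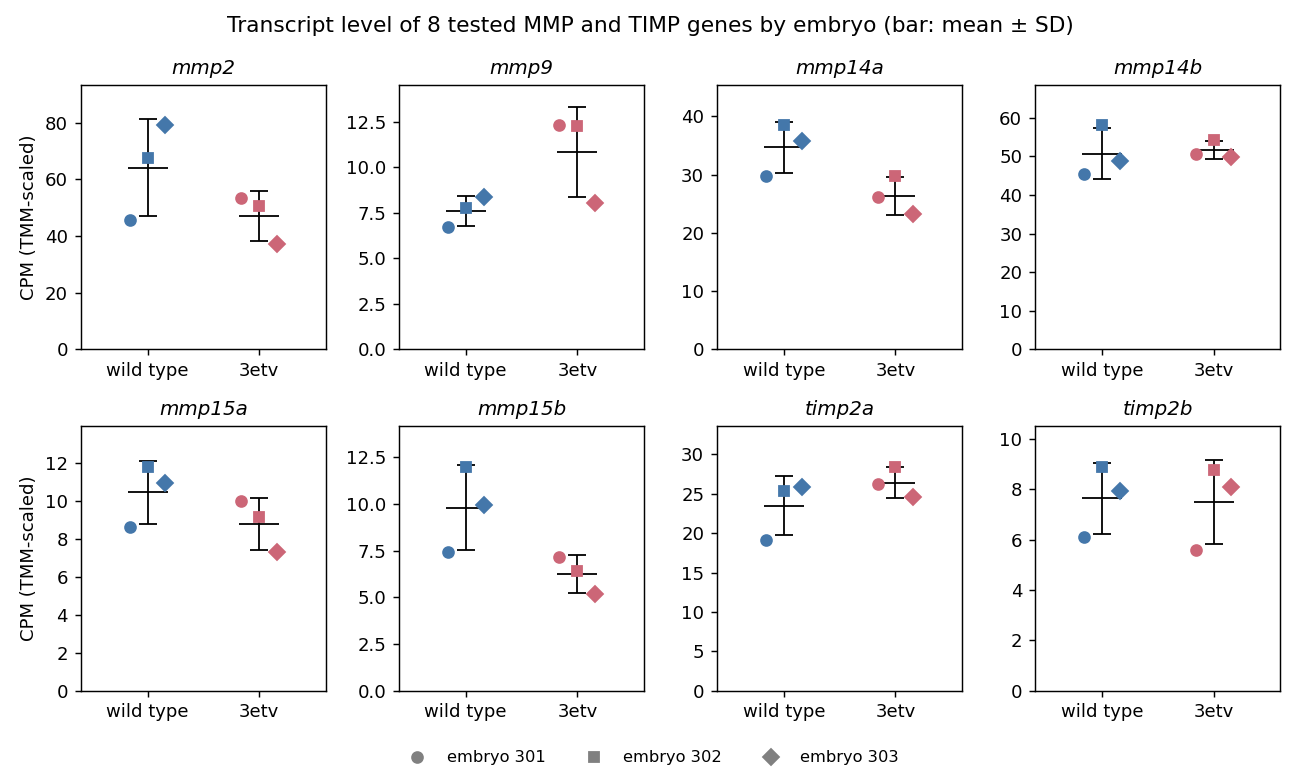
Level in CPM (vertical axes, from 0) of the 8 tested members in each embryo, with wild types in blue and 3etv mutants in red, marker shapes for the embryo's number, and a bar for the mean ± SD of 3. The groups separate for mmp14a and mmp15b and overlap in the other 6 panels, and WLD301 is the lowest wild type in every panel.

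Of the secreted gelatinases, mmp2 encodes gelatinase A, the enzyme that the MMP14 and TIMP2 complex activates in mammals. It held 989, 1740 and 1827 counts (45.5, 67.7 and 79.0 CPM) in the wild types and 1058, 859 and 678 counts (53.4, 50.6 and 37.0 CPM) in the mutants. WLD302 and WLD303 stood above every mutant, whereas WLD301 lay below 2 of the mutants. The log2 fold change was -0.45 ± 0.18 (SE, adjusted p = 0.0803 in edgeR), with a 95% interval from -0.83 to -0.06 before adjustment, so mmp2 was not called. Without WLD301 the log2 fold change was -0.64 with an edgeR adjusted p of 0.00714, and without WLD303 it was -0.27 with an edgeR adjusted p of 0.32. On all 6 embryos mmp2 was called with no low-count filter (edgeR adjusted p = 0.0239) and in the DESeq2 Wald test (adjusted p = 0.0464).

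The gene mmp9 encodes gelatinase B, known from leukocytes and from wounded or inflamed epithelia. It was the one tested member with a positive log2 fold change of over 0.2. Wild types had 146, 200 and 193 counts (6.72, 7.78 and 8.35 CPM), and mutants had 244, 208 and 147 counts (12.3, 12.3 and 8.02 CPM). MUT301 and MUT302 lay above every wild type, and MUT303 lay inside the wild-type range. The log2 fold change was 0.51 ± 0.18 with an edgeR adjusted p of 0.0507, just over the threshold. The call appeared with DESeq2 size factors (edgeR adjusted p = 0.0489), with no low-count filter (0.0289), in the DESeq2 Wald test (0.0408), and without MUT303 (edgeR adjusted p = 0.0093). Its adjusted p lay between 0.0093 and 0.16 over the 13 alternatives.

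Because mmp9 is a gene of myeloid cells as well as epithelia, leukocyte markers are set beside it. The summed level of 8 tested macrophage markers ran from 22.6 to 27.3 CPM in wild types and from 20.6 to 23.4 CPM in mutants. For 7 neutrophil markers it ran from 28.03 to 31.4 and from 27.0 to 29.9 CPM, and for 6 pan-leukocyte markers from 13.9 to 19.3 and from 17.3 to 19.6 CPM. The neutrophil list includes mmp25b, which is also counted among the other MMP and TIMP genes below. Of these 21 markers, mfap4, npsn and wasb rose and ctss2.1 and cebp1 fell, while the neutrophil peroxidase mpx was at 2.94 to 3.58 CPM in wild types and 3.13 to 3.65 CPM in mutants. Within the macrophage sum, ctss2.1, its largest part in wild types, went from a mean of 8.89 to 4.53 CPM. The mean of mfap4 went from 2.71 to 5.38 CPM. The wasb call held in only 1 of its 12 alternatives, and that of npsn in 10 of 13. Called were 25% of the macrophage, 28.6% of the neutrophil and 16.7% of the pan-leukocyte markers, against 26% of all tested genes. The macrophage gene mpeg1.1 was low throughout, at 0.544 to 1.47 CPM and 0.295 to 0.808 CPM. The 6 pan-leukocyte markers had positive log2 fold changes, with 1 called, and 2 of those signs turned with library totals as the scaling. The part of these markers in the mmp9 values was not tested. In whole embryos, fewer cells of a type and less RNA per cell cannot be told apart.

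The collagenase gene mmp13a, known in zebrafish from early myeloid cells, was at the limit of detection. One of its rows (ENSDARG00000012395) held 0, 1 and 2 counts in the wild types and 0, 2 and 0 in the mutants. The other (ENSDARG00000114451) held 3, 5 and 3 counts in the wild types and 11, 3 and 3 in the mutants. Neither row passed the expression filter, and a floor of 3 counts corresponds to 0.118 to 0.171 CPM, so a difference was not detectable at this depth. The table keeps reads with several alignments apart, as 6.10% to 6.50% of all entries in wild types and 5.14% to 5.32% in mutants. Reads that fit both rows equally well would be among those, and the mmp13a counts are uncertain for that reason. The ratio of mmp9 to mmp13a rests on 3 to 11 mmp13a counts in each library and is not interpreted. It overlapped between the groups (exact permutation test, described below, p = 0.9, adjusted 0.9).

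The inhibitor genes timp2a and timp2b are the zebrafish counterparts of TIMP2. The level of timp2a was 19.2, 25.4 and 25.9 CPM in the wild types and 26.3, 28.5 and 24.6 CPM in the mutants. MUT301 and MUT302 stood just above the highest wild type, and MUT303 inside the wild-type range. The log2 fold change was 0.17 ± 0.12 (SE, adjusted p = 0.342 in edgeR), with a 95% interval from -0.10 to 0.44. The level of timp2b was 6.12, 8.91 and 7.92 CPM in the wild types and 5.60, 8.78 and 8.08 CPM in the mutants. These ranges nearly coincide, and the log2 fold change was -0.04 ± 0.20 (SE, adjusted p = 0.907 in edgeR), with a 95% interval from -0.46 to 0.39. Neither inhibitor was called under any of the 13 alternatives.

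**Figure D2:**
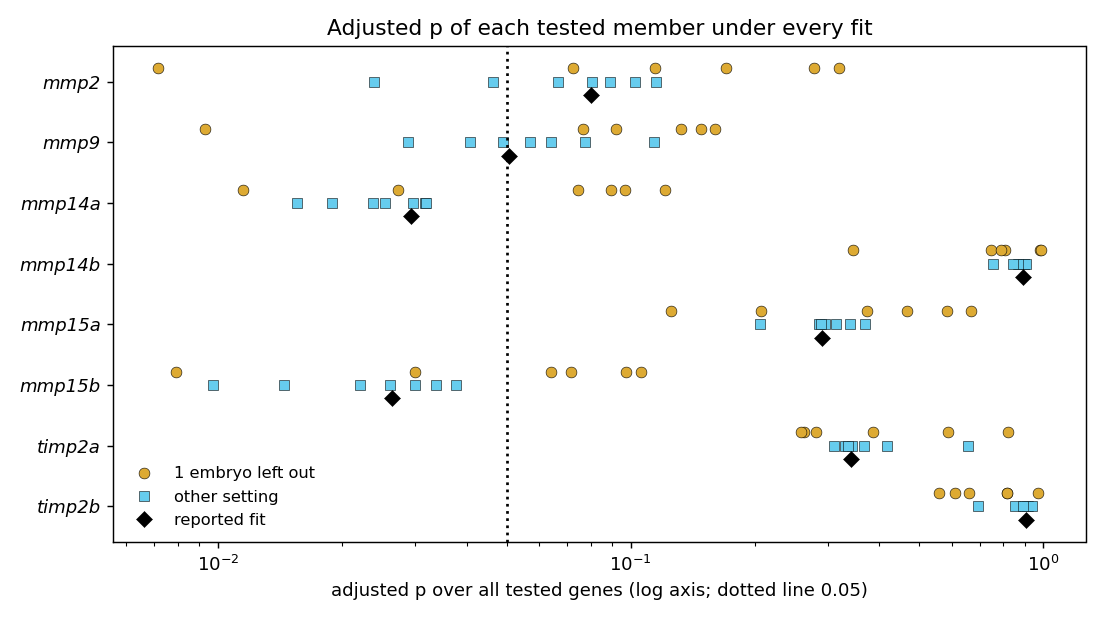
Adjusted p over all tested genes (horizontal log axis) for each tested member, with a black diamond for the reported edgeR fit, yellow circles for the 6 fits made with a single embryo removed and blue squares for the 7 other settings. Points for mmp2, mmp9, mmp14a and mmp15b lie on both sides of the dotted line at 0.05, and those of mmp14b, mmp15a, timp2a and timp2b all lie to its right.

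A call in one paralog and none in the other does not show that they differ, so within-embryo ratios were compared directly. A ratio of counts inside a library is free of library scaling. Among single tested genes, 42.9% had groups that did not overlap, and no such share was computed for ratios of genes. An exact two-sided permutation test of 3 embryos against 3 cannot go below p = 0.1, and adjusted over 6 ratios, that of mmp9 to mmp13a included, the smallest value here was 0.2, so none could pass the threshold.

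The log2 ratio of mmp14a to mmp14b was -0.60, -0.59 and -0.45 in the wild types, and -0.95, -0.87 and -1.10 in the mutants. Every mutant had less mmp14a per mmp14b than every wild type. The means were -0.55 ± 0.09 and -0.97 ± 0.12 (SD, n = 3 each), a difference of -0.43 (exact permutation test, p = 0.1, adjusted 0.2). The gap between the groups was wider in this ratio than in the mmp14a level alone.

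For mmp15a over mmp15b the log2 ratio was 0.21, -0.02 and 0.14 in the wild types and 0.48, 0.51 and 0.49 in the mutants. The mutants were again all on one side, and lay closer together than the wild types. Their ratios rest on 134 to 198 counts of mmp15a and 95 to 142 of mmp15b. With 3 values at such counts, the small SD is no measure of precision. Over all genes, too, mutant libraries differed less from each other than wild-type libraries did. The means were 0.11 ± 0.12 and 0.49 ± 0.01 (SD, n = 3 each; exact permutation test, p = 0.1, adjusted 0.2). The ratio of timp2a to timp2b did not separate the groups, at 1.62 ± 0.10 in wild types and 1.84 ± 0.34 in mutants (SD, n = 3 each; exact permutation test, p = 0.5, adjusted 0.6), and MUT301 alone stood apart at 2.22.

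The protease mmp2 was then set against its cofactor and inhibitor. The log2 ratio of mmp2 to timp2a was 1.24, 1.41 and 1.61 in the wild types and 1.02, 0.83 and 0.59 in the mutants. No mutant reached the lowest wild type, although neither gene was called alone. The difference of means was -0.61, a ratio of 0.656 times that of the wild types (exact permutation test, p = 0.1, adjusted 0.2), and it ran from -0.71 to -0.50 when each embryo was left out. Against timp2b the log2 ratio of mmp2 overlapped between the groups, at 3.04 ± 0.24 and 2.65 ± 0.54 (SD, n = 3 each; exact permutation test, p = 0.3, adjusted 0.45). MUT301, with the lowest timp2b level of all embryos, was the mutant inside the wild-type range.

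**Figure D3:**
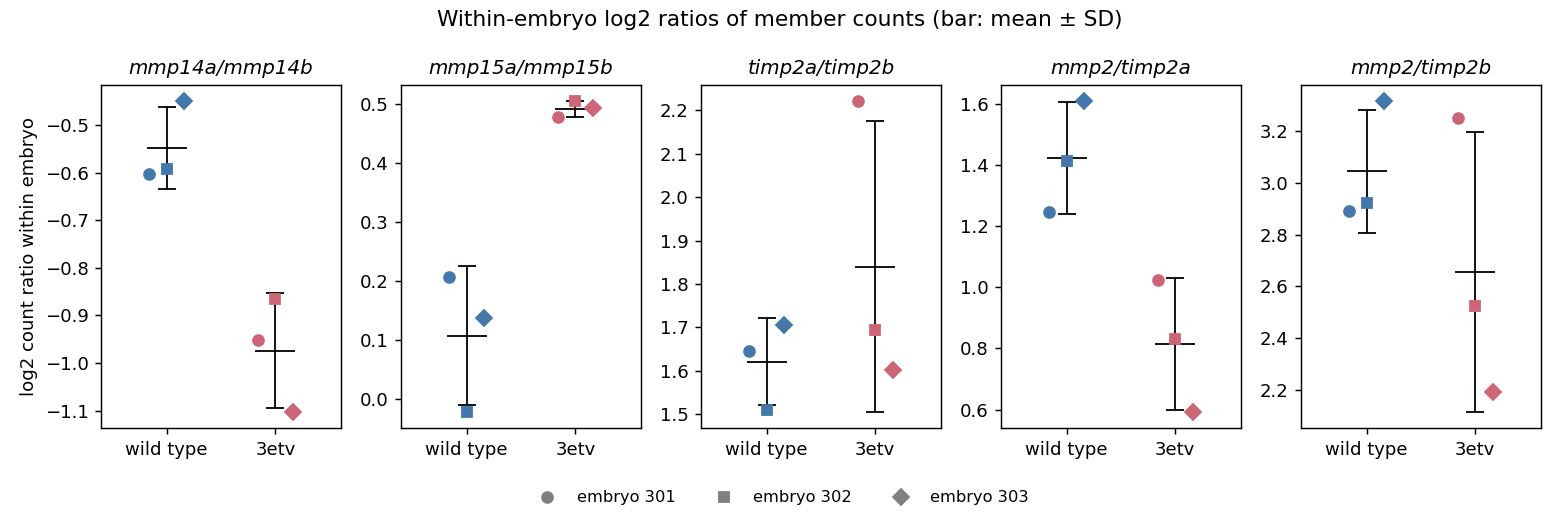
Within-embryo log2 ratios of counts (vertical axes, each with its own range) for 5 pairs of members, with wild types in blue, 3etv mutants in red, marker shapes for embryos and a bar for the mean ± SD of 3. The groups separate for mmp14a over mmp14b, mmp15a over mmp15b and mmp2 over timp2a, and overlap in the 2 other panels. How often ratios of other gene pairs separate was not computed.

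The lowest embryo of each group was the same for most members. WLD301 was the lowest wild type for 8 of the 8 tested members, against 35.4% of all tested genes, and MUT303 was the lowest mutant for 7 of the 8, against 36.4% of all tested genes. The exception was timp2b, lowest in MUT301. The highest wild type was less uniform, with WLD302 highest for 5 of the 8, against 36.2% of all tested genes. WLD301 had a total count of 21516892, close to the 21804570 of WLD303, and MUT303 had 19409914, between those of the other mutants. These embryos were singled out after their values were seen.

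Over the 6 libraries, the genes whose log2 CPM followed mmp15b most closely were lrrc8da (Pearson r = 0.998), the fibronectin gene fn1a (r = 0.997) and the fibrillar collagen gene col11a1b (r = 0.995). For mmp14a they included the cell adhesion gene chl1a and the transcription factor gene mef2d, each at r = 0.998. These are among the highest values of 15219 genes over 6 libraries that share the same group difference, and serve as a description. Of these, lrrc8da, col11a1b, chl1a and mef2d fell in mutants, with log2 fold changes of -0.40, -0.49, -0.73 and -0.57 (edgeR adjusted p = 0.0428, 0.0148, 0.0115 and 0.00903). The gene fn1a was not called, at -0.19.

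The rest of the MMP and TIMP family was read from every other row whose symbol begins with mmp or timp and a number. Of 19 such rows, 13 were tested, 2 fell and none rose (0 also at an unadjusted p under 0.05, and 0 in DESeq2 and limma-voom). That is 15.4% called, against 26% of all tested genes. The gene mmp30 changed most of the whole family, from 132, 217 and 156 counts in the wild types to 41, 31 and 33 in the mutants (7.09 ± 1.22 to 1.90 ± 0.15 CPM, SD, n = 3 each). The highest mutant held 2.07 CPM and the lowest wild type 6.08 CPM. The change on the log2 scale was -1.90 ± 0.20 (SE, adjusted p = 6.21e-05 in edgeR), and it was called in all 13 alternatives.

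The collagenase gene mmp13b, a paralog of mmp13a, held 22, 27 and 44 counts in the wild types and 7, 10 and 6 in the mutants. The groups did not overlap, and the log2 fold change was -1.64 ± 0.42 (SE, adjusted p = 0.0125 in edgeR). Without WLD303, the embryo with 44 counts, the log2 fold change was -1.29 and the call was lost (edgeR adjusted p = 0.0653). The other 11 tested rows had log2 fold changes from -0.72 (mmp11a) to 0.44 (mmp21) and none had an adjusted p below 0.191 in edgeR. In the 6 rows too low to test, mmp20b held 2, 3 and 2 counts in wild types and 0 in every mutant, and mmp19 held 0, 7 and 4 in wild types and 0 in every mutant. The row of mmp25a held 8, 12 and 9 counts against 4, 4 and 6, and mmp20a 6, 3 and 6 against 3, 2 and 4. The row of timp4.3 held 0, 1 and 0 against 0, 0 and 1, and timp4.2 held 0, 0 and 0 against 2, 0 and 0. At such counts a difference between the groups cannot be read. On the RefSeq table of assembly GRCz12tu, mmp30 and mmp13a lie near each other, with a single protein-coding gene between them.

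**Figure D4:**
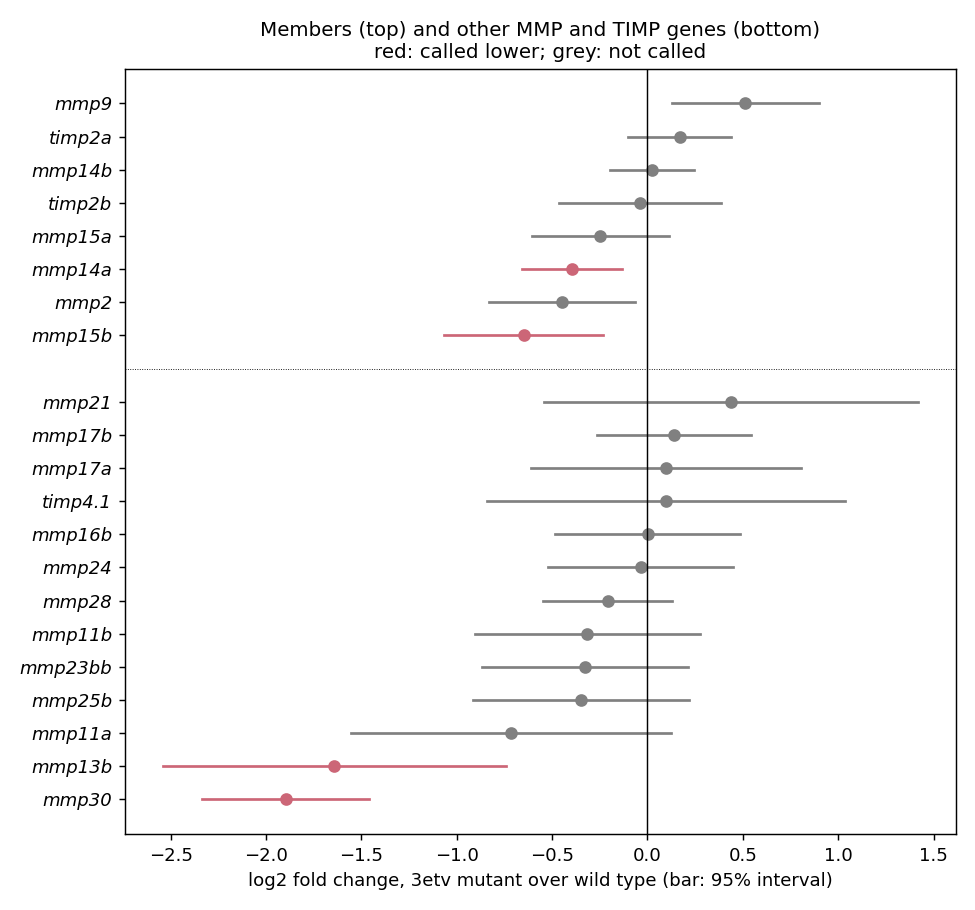
Log2 fold change of 3etv mutants over wild types (horizontal axis) with its 95% interval for the 8 tested members (top) and the 13 other tested MMP and TIMP genes (bottom), with called genes in red. The points for mmp30 at -1.90 and mmp13b at -1.64 lie left of all members, whose points run from -0.65 to 0.51.

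MMPs are opened by other proteases and held back by other inhibitors, so 18 such genes were listed, of which 16 were in the table and 15 tested. In this list 3 fell and none was called higher (4 were higher at an unadjusted p under 0.05, and 0 were called higher in DESeq2 and limma-voom). That is 20% called, against 26% of all tested genes. In the alternatives, 1 gene of this list was called higher with no low-count filter, without WLD301 and without MUT301. With library totals only, 0 were higher at an unadjusted p under 0.05. The plasminogen gene plg, whose product plasmin opens several proMMPs in mammals, went from 14.5 ± 4.61 to 7.74 ± 1.06 CPM (log2 fold change -0.90 ± 0.21, SE, edgeR adjusted p = 0.00849). The caveolin gene cav1, whose membrane domains hold MMP14 in mammalian cells, and serpine2, which encodes an inhibitor of serine proteases, fell by 0.53 and 0.46 on the log2 scale (edgeR adjusted p = 0.023 and 0.0132). Both calls were lost without MUT303 (edgeR adjusted p = 0.0973 and 0.0589), which left 1 call, and cav1 was called in 10 of its 13 alternatives. The cav1 groups overlapped, with MUT301 at 134.1 CPM and WLD301 at 133.4 CPM. The membrane inhibitor gene reck was at 31.5 to 37.1 CPM in wild types and 27.2 to 38.4 CPM in mutants. The furin gene furina, whose product opens membrane-type proMMPs, was at 35.6 to 42.1 and 35.7 to 42.2 CPM. Its paralog furinb was at 11.8 to 15.8 CPM in wild types and 16.2 to 17.9 CPM in mutants, without overlap. It was not called (edgeR adjusted p = 0.0922), but was among the 4 genes higher before adjustment. The other genes of those 4 were pcsk5b, pcsk7 and tfpi2, and none was called.

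The related ADAM and ADAMTS metalloproteinases, which shed membrane proteins and process matrix, had 30 tested rows, of which 8 fell and 1 rose. That is 30% called, against 26% of all tested genes. The number that fell was 5 without WLD303, 6 without WLD302 or MUT303, and from 7 to 9 with any other embryo left out. Of the 8, those with the largest falls were adamts16 (log2 fold change -1.23 ± 0.29, SE), the procollagen peptidase gene adamts3 (-0.90 ± 0.14), adam8b (-0.86 ± 0.22) and adamts6 (-0.77 ± 0.20), with edgeR adjusted p-values of 0.00845, 0.000807, 0.0145 and 0.0138. The level of adamts3 went from 34.5 ± 0.42 to 18.5 ± 4.48 CPM (SD, n = 3 each). The one that rose was a row of adamts15b, by 0.95 ± 0.30 (SE, adjusted p = 0.0356 in edgeR), a call that held in 7 of its 12 alternatives. The median log2 fold change of the 30 was -0.29.

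Among 20 matrix genes whose products MMPs can cut, 12 fell, 1 rose and 7 were not called. So 65% were called, against 26% of all tested genes, and the median log2 fold change was -0.36. The number that fell was 6 without MUT303, 7 without WLD303, 8 without MUT301 or MUT302, 9 without WLD302 and 13 without WLD301. The proteoglycan gene vcanb went to 0.45 times its wild-type level, and the basement membrane genes hspg2 (perlecan), col4a1 and nid1a (nidogen) to 0.499, 0.543 and 0.591 times theirs (edgeR adjusted p = 0.000618, 0.0042, 0.00446 and 0.00368). The fibronectin gene fn1b went the other way, at 27.9, 32.7 and 29.2 CPM in the wild types and 189.8, 202 and 119 CPM in the mutants, a log2 fold change of 2.51 ± 0.17 (SE, adjusted p = 1.45e-06 in edgeR). The lowest mutant was thus well above the highest wild type. WLD301 was the lowest wild type for 18 of these 20 genes, against 5 of 13 other MMP and TIMP genes, 15 of 30 ADAM and ADAMTS rows and 5 of 15 activators and inhibitors. MUT303 was the lowest mutant for 18 of the 20, and for 10 of 13, 19 of 30 and 6 of 15 in those lists. In the tissue marker lists described below, WLD301 was lowest for 6 of 6 fin fold, 5 of 8 endothelial, 4 of 9 epidermal and 3 of 7 hatching gland rows. MUT303 was the lowest mutant for 5, 4, 6 and 1 of those rows.

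**Figure D5:**
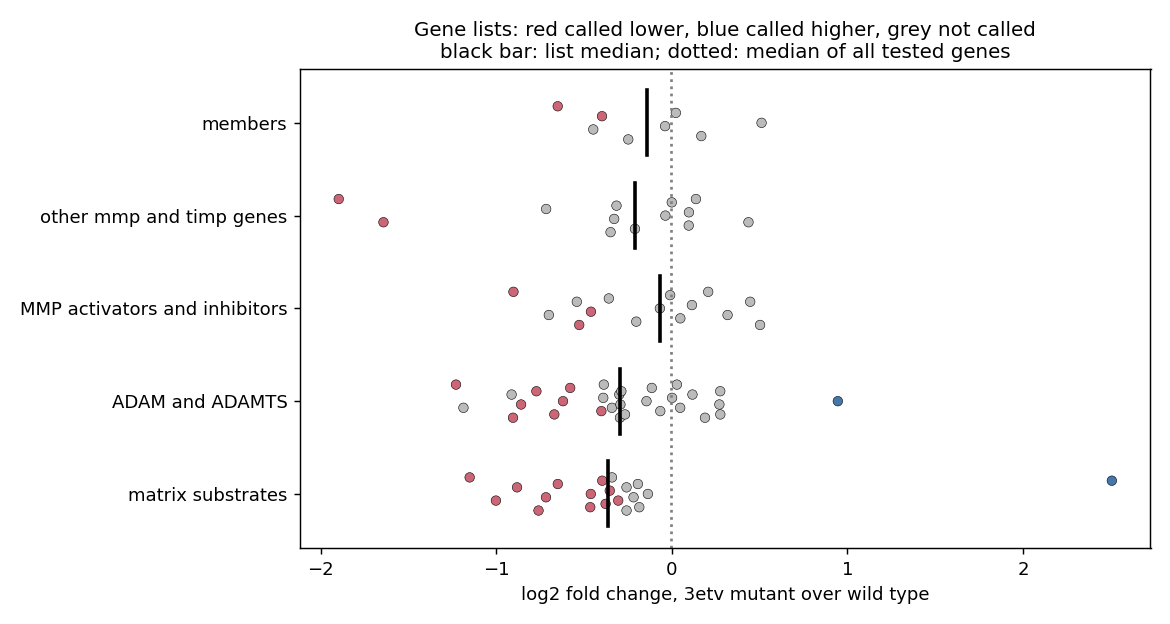
Log2 fold change of 3etv mutants over wild types (horizontal axis) for each tested gene of 5 lists (rows), with genes called lower in red, called higher in blue and not called in grey, a black bar at each list's median and a dotted line at the median of all tested genes. The medians run from -0.07 for activators and inhibitors to -0.36 for matrix substrates, with fn1b alone at the far right.

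Markers of several embryonic tissues were read beside the members, whose own place of expression whole embryos do not show. Of 6 fin fold genes, 3 fell (and1, fras1 and frem2a) and none rose (0 at an unadjusted p under 0.05, and 0 in DESeq2 and limma-voom), and their summed level ran from 318 to 451 CPM in wild types and from 196 to 283 CPM in mutants. The frem2a call held in 10 of 13 alternatives and was lost in the DESeq2 Wald test (adjusted p = 0.0774), which called 2 of the 6 lower. Of 8 endothelial genes, tek and tie1 fell and none rose (0 at an unadjusted p under 0.05, and 0 in DESeq2 and limma-voom), with summed levels of 101 to 130 and 94.7 to 99.0 CPM. The tie1 call held in 9 of 13 alternatives, and 1 endothelial gene was called lower without WLD302, WLD303, MUT301 or MUT302. Of 9 epidermal genes, cyt1l and krt1-19d rose and epcam fell, with summed levels of 15162 to 16964 and 16293 to 17477 CPM, and from 1 to 3 were lower over the alternatives. The gene krt4 made up most of these sums, with means of 11842 CPM in wild types and 11759 CPM in mutants. Log2 fold changes were negative for 6 of the 9 epidermal genes, with a median of -0.21. Of 7 tested hatching gland rows, he1.3 and a row of ctslb fell, with summed levels of 251 to 330 and 174 to 276 CPM. The number lower was 1 without WLD302 or MUT302, and 4 without MUT301 and with no low-count filter. The share called in either direction was 50% for fin fold and 25% for endothelial markers. It was 33.3% for epidermal and 28.6% for hatching gland rows, against 26% of all tested genes. The fin fold and endothelial sums did not overlap between the groups, although the endothelial sums nearly touched (101 against 99.0 CPM). The sums of other MMP and TIMP genes, of ADAM and ADAMTS rows and of matrix substrates did not overlap either. Over all tested genes, 42.9% had groups that did not overlap, as for mmp14a and mmp15b. That share is of single genes, and none was computed for sums over lists. The part of the tissue markers in the mmp14a and mmp15b values was not tested.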

How the data were processed

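The authors deposited raw counts for each Ensembl identifier and its symbol, closed by HTSeq summary lines. STAR, HTSeq and the build GRCz11 are named in the submitters' processing notes. Their versions, the gene annotation and how strand was counted are not given in the sources used here, so counts of overlapping genes and near-identical copies are uncertain. The summary lines held 60.1% to 61.1% of all entries and stayed out of library sizes. The header lacks a tab between the last mutant columns, and each column was matched to its sample by name.

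Counts were analysed in R 4.3.3 with edgeR 4.0.16 (filterByExpr, TMM factors, quasi-likelihood test on genotype, Benjamini-Hochberg over 19889 genes). The standard error is the fold change over the square root of F, and 95% intervals are not adjusted for the number of genes. Ratios used counts plus 0.5. DESeq2 1.42.0, limma-voom (limma 3.58.1), other scalings and filters, the replicate block and each embryo left out were alternatives. The edgeR, DESeq2 and limma-voom fits were run on simulated counts with known changes, larger than those of mmp14a and mmp15b. Far fewer genes changed in the simulation than were called in these data, all with a mean of at least 50 counts. It therefore does not cover a share of changed genes like that of the data. The permutation tests, the replicate block, the other scalings and filters and the fits with an embryo left out were not simulated.

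The members, lists and tests were chosen with earlier results of these data known. Members were all named, with every other called MMP or TIMP gene, up to 4 called genes per direction of each list, and the 3 genes closest to each called member. One gene that this rule names is not reported here. Other genes were named after their values were seen. No sequences were used, and promoter motifs were not analysed here. Intervals and floors cover counting error or embryo spread only.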

Additional observations from a re-analysis of the deposited data

How the results depend on the processing

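The number of members called higher was 0, and it was 1 (mmp9) with DESeq2 size factors, with no low-count filter and in the DESeq2 Wald test, and from 0 to 1 with an embryo left out. The number called lower was 2, then 3 (mmp2 added) with no low-count filter and in the DESeq2 Wald test, and ran from 0 to 3 with an embryo left out. Among other MMP and TIMP genes the number called lower was 2, then 1 with a mean of at least 50 counts (mmp13b is not tested there), and from 1 to 2 with an embryo left out. Over all genes the count called higher was 2502, and ran from 1643 to 2266 with an embryo left out. The sign of mmp14b turned with library totals only (-0.051), and its log2 fold change ran from -0.054 to 0.13 with an embryo left out. That of timp2b ran from -0.18 to 0.15, and the difference in the log2 ratio of mmp9 to mmp13a, which rests on 3 to 11 mmp13a counts, from -0.33 to 0.16. The cause was not tested. With library totals only, 34.2% of calls were higher in mutants, against 48.3%.

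Same-numbered embryos gave no sign of pairing, with correlations of deviations of -0.07, 0.09 and -0.11. These values cannot show that the embryos were unpaired, as the labels give no clutch. With the replicate block, 2 members were called lower and 0 higher, mmp14a at an edgeR adjusted p of 0.0254 and mmp15b at 0.0377. Over all genes 2227 were then higher and 2496 lower. Depth limits mmp13a, mmp13b and the rows with under 10 counts per library.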
